A study of Mus musculus with 9 samples.

Results

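The NuRD complex (nucleosome remodelling and deacetylase) was followed here through the transcripts of 10 of its subunits in the media of mouse femoral arteries, the layer of the vessel wall that is made mostly of smooth muscle: Chd3, Chd4, Mta1, Mta2, Mta3, Hdac1, Hdac2, Mbd2, Mbd3 and Rbbp4. They were taken by gene symbol from the 3 deposited tables, which hold 17093 genes in all, and all 10 were present in each table. RNA sequencing gave 9 libraries in 3 groups of 3, all from C57BL/6 mice: sham-operated arteries (sham), arteries taken 14 days after injury of the vessel with a wire (injured), and wire-injured arteries from mice dosed with VS-4718, an inhibitor of focal adhesion kinase (FAK), until the same day (inhibitor-treated). Per the labels, VS-4718 was given by oral gavage at 50 mg/kg, 2 times a day for 2 weeks. The vehicle, 10 mM citrate, is listed for the sham and injured libraries. The labels do not say outright whether the sham mice received it. Replicates are numbered in the labels without a word on how many animals each stands for. The p-values therefore describe scatter among these libraries, and that scatter may be technical. Sham arteries of inhibitor-treated mice were not analysed here, so the effect of the compound on uninjured arteries cannot be told apart from its effect after injury.

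NuRD joins 2 enzyme activities in a single assembly: a CHD-family ATPase (Chd3 or Chd4) slides nucleosomes, and histone deacetylases (Hdac1 and Hdac2) remove acetyl groups from histone tails. MTA proteins form the scaffold that holds and activates the deacetylases, the WD40-repeat proteins Rbbp4 and Rbbp7 bind histones, Gatad2 proteins link the deacetylase and remodeler sides, and Mbd2 or Mbd3 completes the complex. Mbd2 binds methylated DNA and mammalian Mbd3 largely does not, and the paralogs exclude each other, so complexes of different makeup exist. In smooth muscle, histone deacetylases are known as partners of repressors acting on contractile genes during the switch from the contractile to the synthetic state.

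Recovered read totals ranged from 14676891 to 21248740 per library, and the members were counted with 272 to 6181 reads each. The summed level of 10 smooth muscle markers lay between 578351 and 755829 in sham, 169686 and 197377 in injured and 663618 and 679578 in inhibitor-treated libraries (normalised counts), with 9 of the 10 lower after injury by limma. All 12 macrophage and monocyte markers were higher after injury, with sums of 3978 to 5452 in sham, 34849.5 to 53336 in injured and 5578 to 9885 in inhibitor-treated libraries, and all 12 were lower in inhibitor-treated than in injured arteries. Endothelial markers summed to 21404 to 33566, 29692 to 44138 and 26705 to 28321 in the same order, with 6 of 8 higher after injury. Proliferation markers summed to 182 to 242, 1663 to 2035 and 464 to 1039 in the same order, with 6 of 6 higher after injury. Some libraries stood apart. Skeletal muscle markers reached 491768 in injured replicate 2 against 29224 in the lowest injured library, 28722 in sham replicate 3 against 4788 in the lowest sham library, and 34562 in inhibitor-treated replicate 2 against 2248 in the lowest of its group. The liver gene Alb was at 16053 in inhibitor-treated replicate 3 against 14.0 to 70.8 in the other 8. Injured replicate 2, sham replicate 3 and inhibitor-treated replicate 3 were left out together in 1 alternative and are called the 3 set-aside libraries below. That alternative kept inhibitor-treated replicate 2 and injured replicate 1 (56696 for skeletal muscle markers), so it did not remove every library high for muscle genes. Erythroid markers summed to 881 to 3801 in sham and injured libraries, with Gata1 at 0 in sham, and to 40913 to 92069 in inhibitor-treated. Of 8 tested, 6 were higher with the inhibitor than in sham. Alas2 was at 31035 to 72936 with the inhibitor, while the globin Hba-a1 was at 1159 to 1472 against 1464 to 2656 in sham. The globin Hbb-bt was at 350 to 456 against 268 to 571. A list of small RNAs and histone genes also set the inhibitor-treated libraries apart (2406 to 3253 in sham and injured against 25976 to 37044). In it Rn7sk was at 4.36 to 28.2 against 16255 to 27025, and Hist1h1c at 1468 to 2097 against 1623 to 2382. In whole tissue, fewer cells of a type and less RNA per cell cannot be told apart.

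In sham media, set per kilobase of exon so that genes could be compared, the subunits ranked from Mbd3 at 1131 ± 64.8 (SD, n = 3) normalised counts per kb to Mta3 at 145 ± 9.20. Below Mbd3 came Chd3 at 880 ± 58.4, Hdac1 at 822.5 ± 51.6, Mbd2 at 788 ± 27.2 and Chd4 at 742 ± 61.8, and these 4 neighbours lay within the sum of their SDs. Rbbp4 followed at 649 ± 26.3, then Mta2 at 517 ± 16.0, Mta1 at 466 ± 24.4 and Hdac2 at 277 ± 1.78. Within families the remodelers and the MBD proteins were of similar order, Hdac1 stood above Hdac2, and Mta3 was the lowest of the 3 MTA genes. Among 16713 genes ranked on the mean level per kb over the 9 libraries, the members lay between percentile 59.9 (Mta3) and 93.0 (Mbd3). Their replicate scatter was small: the median coefficient of variation was 5.49% in sham, 6.48% in injured and 4.73% in inhibitor-treated libraries, against 8.55%, 13.9% and 6.75% over 11681 genes with a mean of at least 100. The highest value of any member in any group was 20.6%, for Mbd3 in injured arteries.

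After wire injury 3 of the 10 subunits passed the test and all 3 fell: the remodeler Chd3 by 0.93 on the log2 scale, the histone-binding subunit Rbbp4 by 0.52 and the scaffold Mta1 by 0.36. With the FAK inhibitor the same 3 genes were higher than in injured arteries without it, by 0.68, 0.43 and 0.31. Hdac2 was lower by 0.30, a direction that turned to 0.13 higher when libraries were scaled on ribosomal protein genes. Between inhibitor-treated and sham arteries 1 member differed: Mta3 was 0.38 higher. The remodeler Chd4, the scaffold Mta2, the deacetylase Hdac1 and the MBD proteins Mbd2 and Mbd3 passed the test in no comparison.

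These calls were made by limma on log2(normalised count + 1), with Benjamini-Hochberg adjustment over every gene of a table and a threshold of 0.05. The same rule called 37.3% of 16278 genes between injured and sham arteries, 36.1% of 16901 between inhibitor-treated and injured, and 6.08% of 16166 between inhibitor-treated and sham, so 3, 4 and 1 members of 10 were near the share of all genes. At an unadjusted p under 0.05 by limma there were 4, 5 and 4 members, where 46.8%, 46.9% and 21.1% of all genes passed. The members' median log2 difference was -0.13, 0.15 and -0.03 in the same order, and the median size regardless of sign was 0.21, 0.23 and 0.09, below the 0.42, 0.44 and 0.16 of all genes tested. By direction, 16.8% of all genes were called lower after injury (3 members), 17.6% higher and 18.5% lower with the inhibitor against injured (3 members and 1), and 5.15% higher against sham (1 member). Group ranges did not overlap for 6, 5 and 5 members, where 51.3%, 51.6% and 27.9% of all genes did not overlap; after injury 4 members lay wholly below sham, as did 25.3% of all genes. Scaling on ribosomal protein genes moved the median of all genes by -0.29, 0.44 and 0.12, and the split of all calls from 3346 higher and 2730 lower to 2032 and 2575 after injury, from 2976 and 3123 to 3660 and 1296 with the inhibitor against injured, and from 832 and 151 to 1320 and 32 against sham. Relative to that shift, Hdac2 lay at -0.30 between inhibitor-treated and injured arteries. That follows from scaling whole libraries, holds for every gene, and adds no evidence on the direction of Hdac2. The comparisons share libraries, so their values are set side by side and not against each other. The markers of smooth muscle, macrophages and proliferating cells named above moved between the same groups as Chd3, Mta1 and Rbbp4, and their part in these differences was not tested.

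**Figure D1:**
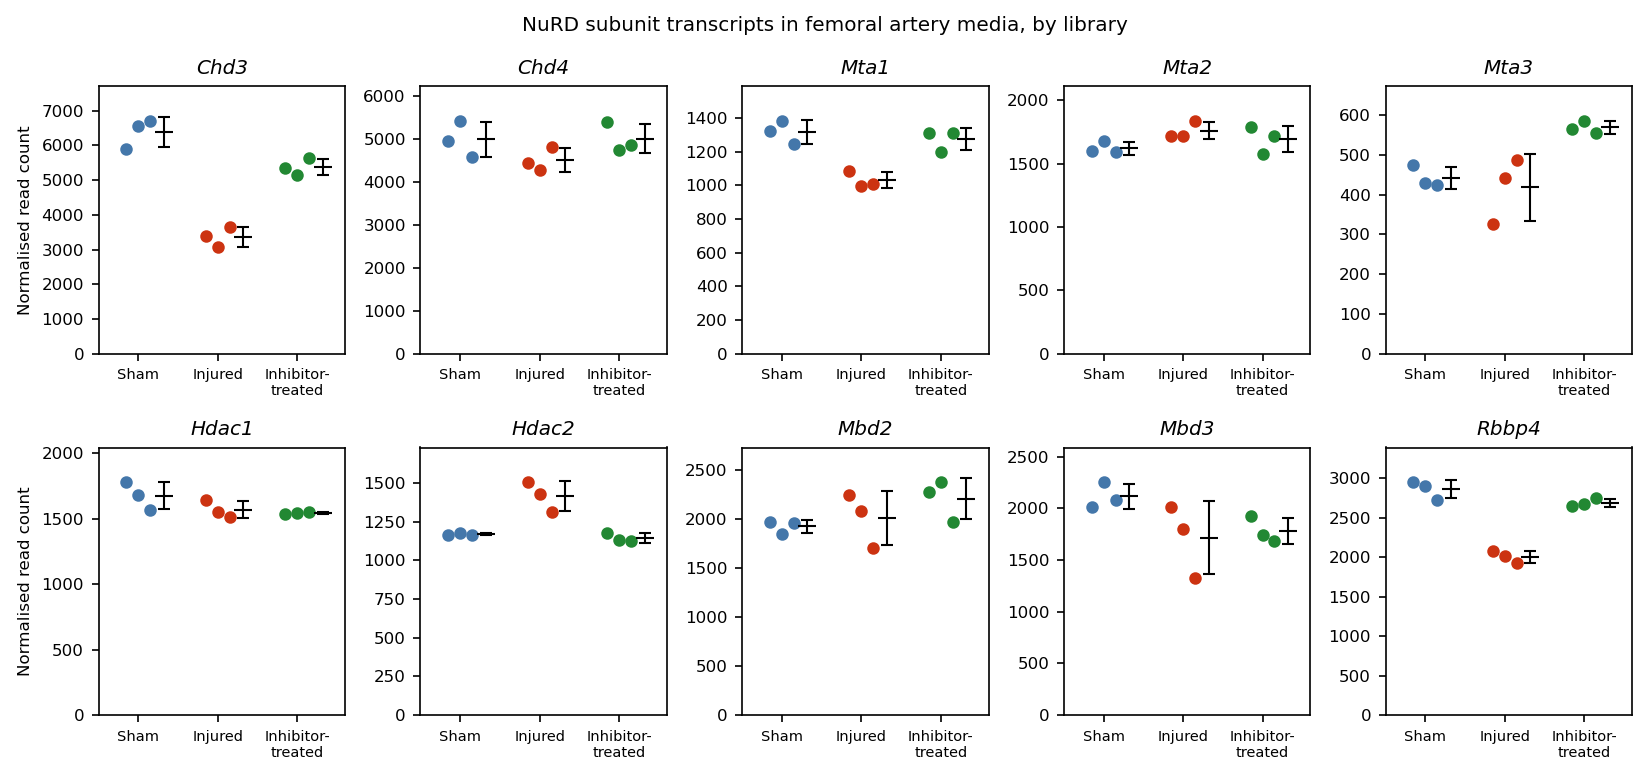
Normalised read count (y axis, from 0) of each of the 10 NuRD subunits in the 3 sham, 3 injured and 3 inhibitor-treated libraries, with the 9 libraries on a common scale; each point is a library and the bar is the group mean with its SD. Chd3, Mta1 and Rbbp4 were lower in all 3 injured libraries than in any library of the other groups, while Chd4 and Hdac1 overlapped between injured and sham.

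**Figure D2:**
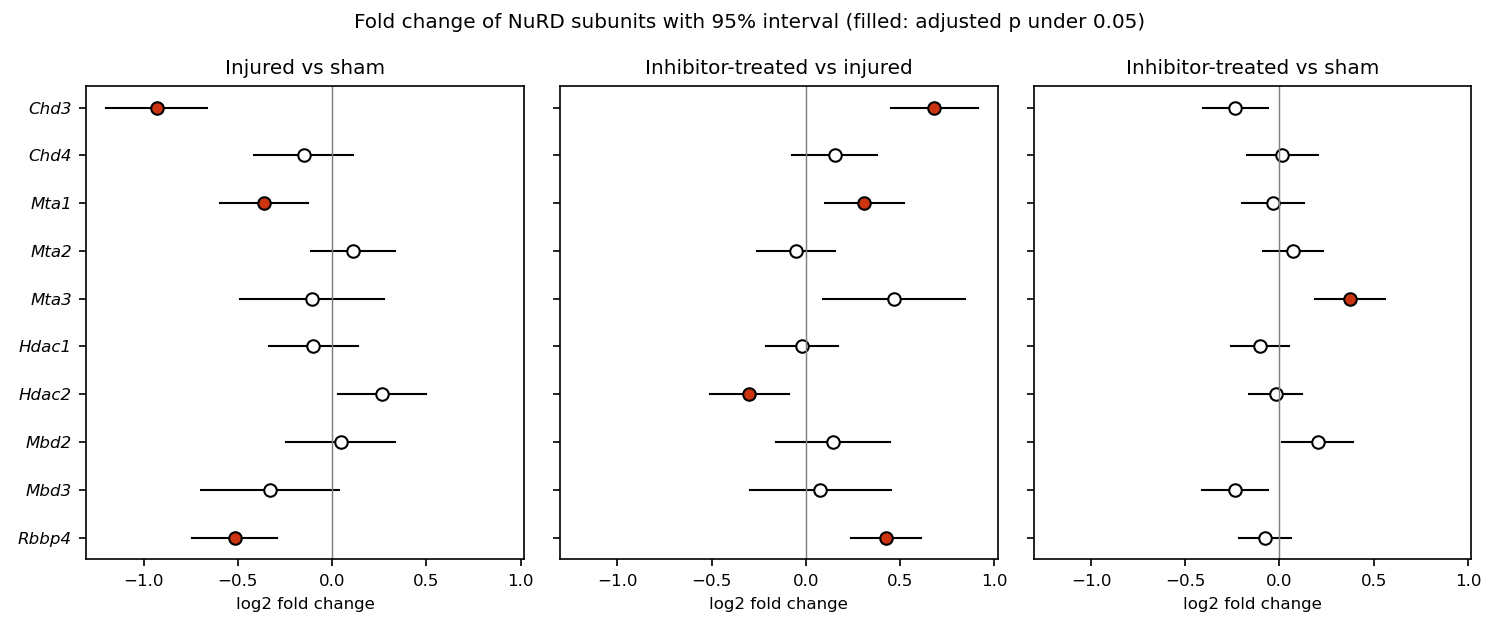
The log2 fold change (x axis) of each subunit with its 95% interval from limma in the 3 comparisons; filled points passed an adjusted p of 0.05. Chd3, Mta1 and Rbbp4 are filled on the negative side after injury and on the positive side for inhibitor-treated against injured arteries, and the filled Hdac2 point, at -0.30, moved to 0.13 under ribosomal protein scaling.

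Among the remodelers, Chd3 and Chd4 are close relatives that occupy the same place in the complex. Chd3 (ENSMUSG00000018474, chr11:69343273-69369406, minus strand, GRCm38; 40 exon blocks) had normalised counts of 5908, 6549.7 and 6709.7 in the sham libraries, 3376, 3079 and 3647 in the injured and 5359, 5154 and 5628 in the inhibitor-treated, given in each case for replicates 1, 2 and 3. The 3 groups did not overlap: sham was highest, inhibitor-treated came between, and injured was lowest. The log2 difference was -0.93 ± 0.12 (SE; 95% interval -1.20 to -0.67; limma adjusted p = 0.000444) after injury and 0.68 ± 0.10 (0.45 to 0.91; 0.00179) for inhibitor-treated against injured arteries. Inhibitor-treated arteries remained 0.23 ± 0.08 below sham, with an interval of -0.41 to -0.06, and this difference did not pass the adjusted test (limma adjusted p = 0.121). Both Chd3 calls held in all 21 alternatives, at adjusted p-values up to 0.00997 after injury and 0.0375 with the inhibitor.

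Chd4 (ENSMUSG00000063870, chr6:125095981-125130591, plus strand, 39 exon blocks) is the remodeler most studied as the NuRD motor. Its counts were 4951, 5412 and 4582 in sham, 4429, 4269 and 4804 in injured, and 5375, 4739 and 4862 in inhibitor-treated libraries. The ranges of injured and sham overlapped, as did those of injured and inhibitor-treated. The log2 difference was -0.15 (95% interval -0.42 to 0.11; limma adjusted p = 0.335) after injury and 0.15 (-0.07 to 0.38; 0.25) with the inhibitor, and under quantile normalisation these became 0.04 and -0.04. Against sham it was 0.02 (-0.17 to 0.20; limma adjusted p = 0.935).

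Because a library's scaling cancels within a ratio, the share of each paralog in the reads of its family was also set out. Chd3 made up 54.4%, 54.8% and 59.4% of the Chd3 and Chd4 reads in the sham libraries, 43.3%, 41.9% and 43.2% in the injured and 49.9%, 52.1% and 53.6% in the inhibitor-treated. The share of reads was thus above 50% in every sham library and below it in every injured one. Reads were not set per kilobase of exon here, so 50% does not mark equal transcript levels. Per kilobase the mean Chd3 share was 54.3% in sham, 40.9% in injured and 49.95% in inhibitor-treated libraries. The group means of the read share were 56.2 ± 2.80%, 42.8 ± 0.752% and 51.9 ± 1.87% (SD, n = 3). They differed by -13.4 percentage points after injury and 9.12 with the inhibitor against injured. No pair of groups overlapped, and the two-sided exact permutation p was 0.1 for each, the smallest that 3 against 3 can give. In all, 21 shares were tested, none could pass the threshold, and the adjusted p of those at 0.1 was 0.15.

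**Figure D3:**
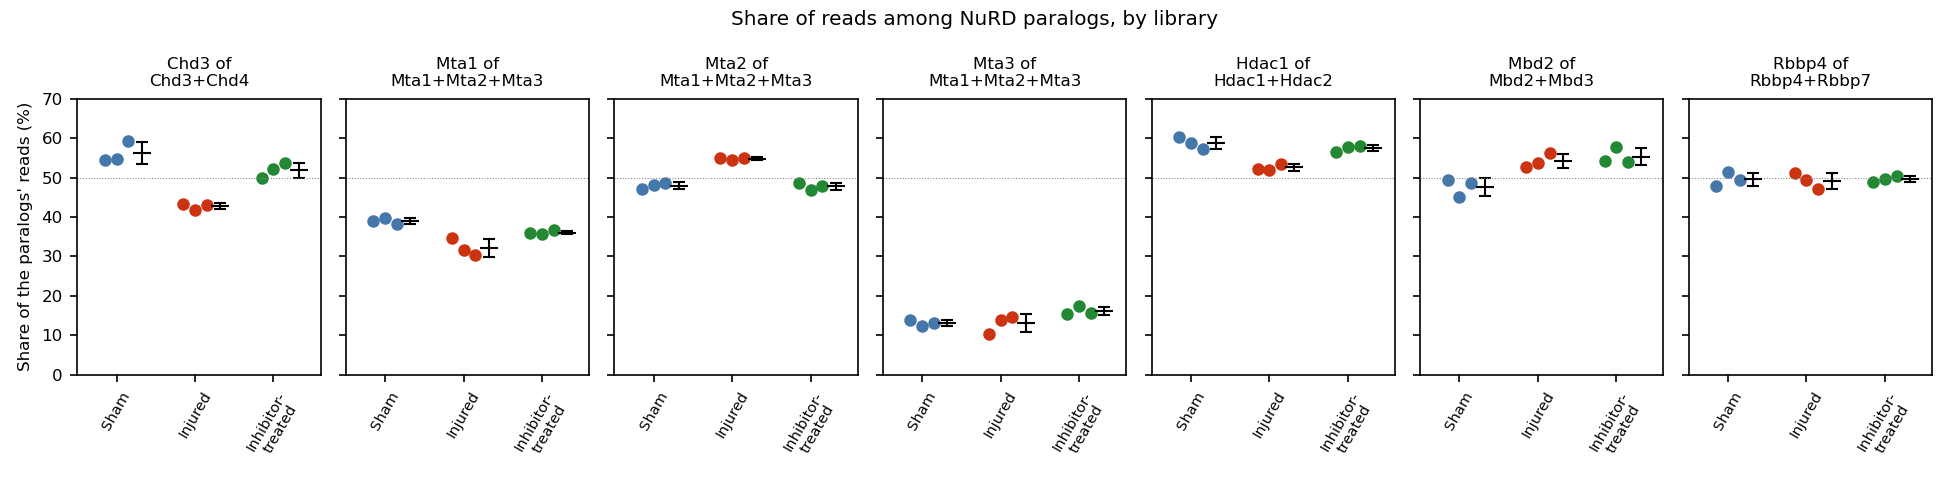
Share of reads (y axis, percent) taken by a paralog among the NuRD paralogs of its family in each library, by group; points are libraries, bars are means with SD, and the dotted line marks 50%. The Chd3 share lies at 54.4% to 59.4% in sham and 41.9% to 43.3% in injured libraries. The Rbbp4 share of Rbbp4 and Rbbp7 stays between 47.1% and 51.3% in all 9. Reads were not set per kilobase of exon, so the line does not mark equal transcript levels.

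The MTA scaffold genes differed among themselves. Mta1 (ENSMUSG00000021144, chr12:113098278-113137206, plus strand, 21 exon blocks) had counts of 1325, 1384 and 1246 in sham, 1085, 999 and 1008 in injured, and 1314, 1201 and 1311 in inhibitor-treated libraries. The 3 injured libraries lay below all 6 others, and sham and inhibitor-treated overlapped. Mta1 fell by 0.36 ± 0.10 after injury (95% interval -0.60 to -0.13; limma adjusted p = 0.0237) and was 0.31 ± 0.09 higher with the inhibitor than in injured arteries (0.10 to 0.52; 0.0311). Against sham the difference was -0.04 (-0.20 to 0.13; limma adjusted p = 0.815), and 0.09 under ribosomal protein scaling. The call after injury was lost without injured replicate 2 (limma adjusted p = 0.0823), sham replicate 1 (0.0803) or sham replicate 2 (0.0989), and without the 3 set-aside libraries (0.134), in a range of 0.0011 to 0.134 over 21 alternatives, while the log2 difference lay between -0.65 and -0.30. The call with the inhibitor was lost without inhibitor-treated replicate 1 (limma adjusted p = 0.120), 2 (0.0632) or 3 (0.0937), without injured replicate 2 (0.0917), without the 3 set-aside libraries (0.218) and under quantile normalisation (0.0757), in a range of 0.00174 to 0.218, while the log2 difference lay between 0.25 and 0.74.

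Mta2 (ENSMUSG00000071646, chr19:8941875-8952303, plus strand), a scaffold expressed in most tissues, was counted at 1596, 1679 and 1587 in sham, 1720.2, 1719.6 and 1836 in injured, and 1785, 1578 and 1714 in inhibitor-treated libraries. Injured libraries lay above sham without overlap, but the step was small. The log2 difference was 0.11 (95% interval -0.11 to 0.33; limma adjusted p = 0.401) after injury and -0.05 (-0.26 to 0.15; 0.663) with the inhibitor, and scaling on ribosomal protein genes turned them to -0.18 and 0.38. Against sham the inhibitor-treated arteries differed by 0.07 (-0.09 to 0.23; limma adjusted p = 0.596).

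Mta3 (ENSMUSG00000055817, chr17:83706163-83821516, plus strand) is the MTA member best known from epithelial and B cells. Its counts were 475, 429 and 423 in sham, 325, 441 and 488 in injured, and 566, 585 and 555 in inhibitor-treated libraries. The inhibitor-treated libraries lay above all 6 others, and injured replicate 1 was the lowest of the 9. Mta3 was 0.38 ± 0.08 higher in inhibitor-treated than in sham arteries (95% interval 0.19 to 0.56; limma adjusted p = 0.0328). That call was lost when inhibitor-treated replicate 1 (limma adjusted p = 0.105), 2 (0.129) or 3 (0.0783), sham replicate 2 (0.0962) or sham replicate 3 (0.0813) was left out, without the 3 set-aside libraries (0.148) and in a fit of all 9 libraries (0.268), in a range of 0.00978 to 0.268 over 21 alternatives, while the log2 difference lay between 0.35 and 0.50. Against injured arteries the difference was 0.47 ± 0.16 (0.09 to 0.84) and missed the threshold at an adjusted p of 0.0561 by limma. It passed in 6 of 21 alternatives, in a range of 0.00481 to 0.198. Among the 6 were the fit without injured replicate 3 (0.59, limma adjusted p = 0.0178) and the authors' deposited test (0.44, adjusted p = 0.0444). After injury it was -0.11 (-0.49 to 0.28; limma adjusted p = 0.649), and 0.06 without injured replicate 1.

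Within the MTA reads, Mta1 took 39.0 ± 0.691% in sham, 32.2 ± 2.27% in injured and 36.1 ± 0.493% in inhibitor-treated arteries. No pair of these groups overlapped. Mta2 took 47.9 ± 0.879%, 54.8 ± 0.353% and 47.8 ± 0.902%, so that the injured libraries stood alone while sham and inhibitor-treated overlapped. Mta3 took 13.1 ± 0.849%, 12.99 ± 2.29% and 16.1 ± 1.11%, with the inhibitor-treated libraries above the rest. Each pair without overlap had a two-sided exact permutation p of 0.1, the smallest possible (adjusted p = 0.15). The shares make up a whole, so a change in any of these genes shifts the shares of the others. Mta1 itself differed by -0.04 between inhibitor-treated and sham arteries (limma adjusted p = 0.815), where Mta3 was 0.38 higher. Mta2 itself differed by 0.11 after injury (limma adjusted p = 0.401), where Mta1 fell by 0.36.

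The deacetylases are closely related enzymes that pair in NuRD and also serve the SIN3 and CoREST complexes. Hdac1 (ENSMUSG00000028800, chr4:129516104-129542713, minus strand) had counts of 1778, 1683 and 1568 in sham, 1646, 1549.6 and 1515 in injured, and 1537, 1542 and 1554 in inhibitor-treated libraries. The inhibitor-treated values lay close together, just under the lowest sham library, and injured overlapped both groups. The log2 difference was -0.10 (95% interval -0.34 to 0.13; limma adjusted p = 0.477) after injury. It was -0.02 (-0.21 to 0.17; 0.866) with the inhibitor against injured, and 0.41 under ribosomal protein scaling. Against sham it was -0.10 (-0.26 to 0.05; limma adjusted p = 0.421), and 0.02 under that scaling. A processed copy of Hdac1, Gm10093, is 99.4% identical over 1444 bases of the transcript. Reads the authors' counting gave to it, a mean of 13.2 normalised counts, could belong to either gene.

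Hdac2 (ENSMUSG00000019777, chr10:36974544-37001889, plus strand) differed in the opposite direction to Chd3, Mta1 and Rbbp4, except under ribosomal protein scaling, where its log2 difference was -0.03 after injury and 0.13 for inhibitor-treated against injured arteries. Its counts were 1168, 1179 and 1165 in sham, 1505, 1429.9 and 1312 in injured, and 1179, 1131 and 1124 in inhibitor-treated libraries. All 3 injured libraries lay above the other 6, and sham and inhibitor-treated overlapped. Hdac2 fell by 0.30 ± 0.09 with the inhibitor against injured arteries (95% interval -0.51 to -0.09; limma adjusted p = 0.0352). The call was lost under ribosomal protein scaling (limma adjusted p = 0.607), without inhibitor-treated replicate 1 (0.0917), 2 (0.118) or 3 (0.0987), without injured replicate 1 (0.0702) or 2 (0.0899), and without the 3 set-aside libraries (0.209), in a range of 0.00168 to 0.607 over 21 alternatives. With 1 library left out the log2 difference lay between -0.35 and -0.26. After injury the difference was 0.26 ± 0.10 (0.03 to 0.50; limma adjusted p = 0.0732), which did not pass; without injured replicate 3 it was 0.32 (0.0261), and under ribosomal protein scaling -0.03. Against sham it was -0.02 (-0.16 to 0.12; limma adjusted p = 0.877), and 0.11 under that scaling.

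The Hdac1 share of the pair was lower in every injured library than in any other. Hdac1 took 60.4%, 58.8% and 57.4% of the Hdac1 and Hdac2 reads in sham, 52.2%, 52.0% and 53.6% in injured, and 56.6%, 57.7% and 58.0% in inhibitor-treated libraries. Injured libraries lay below all others, at a two-sided exact permutation p of 0.1 against either group, the smallest possible, and sham and inhibitor-treated overlapped (exact p = 0.3). This ratio does not depend on the scaling that turned the sign of Hdac2, but it cannot say which gene of the pair moved. After injury the log2 differences of Hdac1 and Hdac2 were -0.10 and 0.26 in the main fit. Under ribosomal protein scaling they were -0.39 and -0.03. Per kilobase of exon the mean Hdac1 share was 74.8% in sham, 69.7% in injured and 73.7% in inhibitor-treated libraries.

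Mbd2 (ENSMUSG00000024513, chr18:70568189-70626131, plus strand), the reader of methylated DNA, had counts of 1972, 1854 and 1965 in sham, 2246, 2083 and 1708 in injured, and 2279, 2377 and 1976 in inhibitor-treated libraries. The inhibitor-treated libraries lay just above sham, and the injured ones spanned both. The log2 difference was 0.04 (95% interval -0.24 to 0.33; limma adjusted p = 0.808) after injury, with -0.25 under ribosomal protein scaling and -0.04 without injured replicate 1. It was 0.14 (-0.16 to 0.45; limma adjusted p = 0.414) against injured, and 0.20 (0.01 to 0.39; 0.207) against sham.

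Mbd3 (ENSMUSG00000035478, chr10:80392539-80399550, minus strand), needed in embryonic stem cells for NuRD to assemble, had counts of 2017, 2251 and 2079 in sham, 2015, 1802 and 1327 in injured, and 1927, 1737 and 1681 in inhibitor-treated libraries. All sham libraries were above the other 6, injured replicate 1 by the narrowest margin, and injured replicate 3 was far below. The log2 difference was -0.33 (95% interval -0.69 to 0.04; limma adjusted p = 0.14) after injury, and -0.15 without injured replicate 3. It was -0.24 (-0.41 to -0.06; limma adjusted p = 0.12) for inhibitor-treated against sham arteries. Against injured it was 0.08 (-0.29 to 0.45; limma adjusted p = 0.726), with -0.02 under quantile normalisation and -0.09 without injured replicate 3. Mbd2 took 47.7 ± 2.27% of the Mbd2 and Mbd3 reads in sham, 54.2 ± 1.86% in injured and 55.3 ± 2.12% in inhibitor-treated arteries, so that sham lay below both other groups without overlap (two-sided exact permutation p = 0.1, the smallest possible). Injured and inhibitor-treated overlapped (exact p = 0.5). Per kilobase of exon the mean Mbd2 share was 41.1% in sham, 47.5% in injured and 48.6% in inhibitor-treated arteries.

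The histone chaperone Rbbp4 (ENSMUSG00000057236, chr4:129307100-129335370, minus strand, 12 exon blocks), which also serves the PRC2, CAF-1, SIN3 and DREAM complexes, had counts of 2949.5, 2906 and 2731 in sham, 2079.98, 2017 and 1928 in injured, and 2655, 2671 and 2748 in inhibitor-treated libraries. The injured libraries lay far below the other 6, and sham and inhibitor-treated overlapped. Rbbp4 fell by 0.52 ± 0.10 after injury (95% interval -0.74 to -0.29; limma adjusted p = 0.00384) and was 0.43 ± 0.08 higher with the inhibitor than in injured arteries (0.24 to 0.61; 0.00553). Against sham it differed by -0.08 (-0.22 to 0.06; limma adjusted p = 0.521), or by 0.05 under ribosomal protein scaling. The call after injury held in all 21 alternatives, and the call with the inhibitor was lost only without the 3 set-aside libraries (0.41; limma adjusted p = 0.0745, in a range from 7.51e-06, by DESeq2, to 0.0745). Rbbp4 shares 518 exonic bases, 11.8% of its exonic length, with Sync on the opposite strand. Sync, an intermediate filament gene of muscle, was at 702 ± 120.2 in sham, 141 ± 58.4 in injured and 679 ± 88.4 in inhibitor-treated libraries (SD, n = 3), and fell by 2.40 ± 0.32 after injury (limma adjusted p = 0.00066). The sources used here do not give whether the counting used strand, so reads of the shared bases cannot be told apart, and their part in the Rbbp4 difference was not tested.

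Rbbp7, the paralog of Rbbp4 and a NuRD subunit outside the 10, moved in the same direction. Its counts were 3207, 2756 and 2798 in sham, 1989, 2056 and 2164 in injured, and 2774, 2703 and 2702 in inhibitor-treated libraries, again with all 3 injured libraries lowest. It fell by 0.50 ± 0.11 after injury (limma adjusted p = 0.00681) and was 0.40 ± 0.08 higher with the inhibitor than in injured arteries (0.00767). Both calls were lost without the 3 set-aside libraries (limma adjusted p = 0.0576 and 0.0840), the highest of 21 alternatives. The lowest adjusted p-values were those of the authors' deposited table, 0.000204 and 5.02e-05. Rbbp7 shares 174 exonic bases, 7.42% of its exonic length, with Txlng on the opposite strand, so the limit given for Rbbp4 holds for it too. Txlng differed by -0.23 ± 0.16 after injury (limma adjusted p = 0.296) and 0.32 ± 0.14 with the inhibitor against injured (0.126). The Rbbp4 share of the pair's reads was 49.5 ± 1.72%, 49.2 ± 2.02% and 49.7 ± 0.757% in sham, injured and inhibitor-treated media. All groups overlapped in the share of reads (two-sided exact permutation p = 0.8 to 0.9). Per kilobase of exon the mean Rbbp4 share was 34.3%, 34.1% and 34.4% in the same order, so Rbbp7 stood above Rbbp4.

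The stretches upstream of Rbbp4, Rbbp7 and Mta1, which fell after injury and were higher with the inhibitor than in injured arteries, and of Hdac2, which lay the other way except under ribosomal protein scaling (0.13 against injured), are printed so that their makeup can be compared. Chd3 is not among them, because the promoter sequences used held no entry for it. Each is the 250 bases before the start site in RefSeq (GRCm38.p6), 5′ to 3′ on the gene's strand, from chr4:129335371-129335620 for Rbbp4 (minus strand), chrX:162760122-162760371 for Rbbp7, chr12:113098028-113098277 for Mta1 and chr10:36974294-36974543 for Hdac2 (plus strand). Capitals mark the CCAAT box (CCAAT, or ATTGG on the other strand) and the GC box (GGGCGG, or CCGCCC on the other strand), and no printed matches overlap.
Rbbp4: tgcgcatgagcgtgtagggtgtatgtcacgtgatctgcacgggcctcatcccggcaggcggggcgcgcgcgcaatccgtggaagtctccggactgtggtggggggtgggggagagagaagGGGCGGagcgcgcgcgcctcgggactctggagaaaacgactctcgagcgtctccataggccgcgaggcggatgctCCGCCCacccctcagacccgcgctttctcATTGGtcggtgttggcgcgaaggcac
Rbbp7: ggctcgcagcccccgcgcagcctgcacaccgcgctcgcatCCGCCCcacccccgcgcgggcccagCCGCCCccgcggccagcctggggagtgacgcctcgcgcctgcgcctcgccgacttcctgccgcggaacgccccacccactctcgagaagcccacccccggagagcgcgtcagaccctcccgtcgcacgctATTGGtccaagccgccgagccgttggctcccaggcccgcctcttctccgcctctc
Mta1: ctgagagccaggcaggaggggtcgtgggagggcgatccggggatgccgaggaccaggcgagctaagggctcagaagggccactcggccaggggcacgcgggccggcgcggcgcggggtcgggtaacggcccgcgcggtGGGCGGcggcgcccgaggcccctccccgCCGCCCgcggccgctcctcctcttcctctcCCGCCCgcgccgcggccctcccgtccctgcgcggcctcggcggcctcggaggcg
Hdac2: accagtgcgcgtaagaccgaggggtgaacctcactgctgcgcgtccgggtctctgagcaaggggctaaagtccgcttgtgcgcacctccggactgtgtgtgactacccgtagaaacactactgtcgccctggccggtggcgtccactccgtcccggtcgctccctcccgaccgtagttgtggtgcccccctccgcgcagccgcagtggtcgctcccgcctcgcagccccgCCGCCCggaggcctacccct
A CCAAT box lay 26 to 22 bases before the start of Rbbp4 and 55 to 51 before that of Rbbp7. None was found in these stretches of Mta1 and Hdac2. Among other subunits searched, the box was also matched for Chd4, Mbd3, Gatad2a, Gatad2b and Cdk2ap1, and not for Mta2 and Chd5. None of these passed the test in any comparison. On either strand, 33.9% of 32851 mouse promoter windows of this length hold that box and 32.7% hold the GC box, of which Rbbp4 and Rbbp7 had 2 each, Mta1 had 3 and Hdac2 had 1. The Mta1 window was 80.8% G and C with 39 CpG pairs, Rbbp7 76.4% with 34, Hdac2 68.8% with 27 and Rbbp4 67.6% with 30, against medians of 52.4% and 6 over all windows. The CArG box, by which serum response factor binds smooth muscle promoters and which is found in 1.47% of windows, was not matched in the windows of the 6 members searched. These are matches of letters and show no binding.

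The other NuRD subunits were counted beside the 10. Of Rbbp7, Gatad2a, Gatad2b, Cdk2ap1 and Chd5, 1 passed the test after injury and 1 with the inhibitor against injured arteries (Rbbp7 in both), and against sham the lowest adjusted p was 0.0593. The linker Gatad2b had counts of 1851, 1841 and 1697 in sham, 1713, 1379.5 and 1332 in injured, and 1749, 1821 and 1939 in inhibitor-treated libraries, with log2 differences of -0.30 ± 0.13 after injury (limma adjusted p = 0.0946) and 0.33 ± 0.12 against injured (0.0668). Its partner Gatad2a differed by 0.05 and -0.01 (limma adjusted p = 0.78 and 0.962). The small subunit Cdk2ap1 was at 766, 803 and 789 in sham, 740, 783 and 688 in injured and 661, 655 and 587 in inhibitor-treated libraries. The inhibitor-treated libraries lay below all others, at -0.30 ± 0.08 against sham (limma adjusted p = 0.0593). Chd5, the neuronal remodeler of the family, was low in all groups, at 30.5 ± 10.0, 31.2 ± 5.32 and 31.6 ± 5.65 normalised counts (SD, n = 3).

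Proteins that share subunits with NuRD, or do the opposite chemistry, were counted from lists, by the same limma test. That test called 37.3% of all genes after injury (20.6% higher and 16.8% lower). With the inhibitor it called 36.1% against injured (17.6% higher and 18.5% lower) and 6.08% against sham (5.15% higher). The list counts that follow are to be read beside these shares. Of 16 other histone deacetylases, 5 passed the test after injury and all 5 fell (list median -0.24), and 5 passed with the inhibitor against injured and all 5 rose (0.27), against medians of all genes within 0.01 of 0. The class IIa enzymes Hdac9 and Hdac5, which bind MEF2 factors, and the class IV enzyme Hdac11 had the largest steps. Hdac9 fell by 2.02 ± 0.16 after injury and was 1.99 ± 0.14 higher with the inhibitor than in injured arteries. Hdac5 fell by 1.32 ± 0.11 and was 1.23 ± 0.08 higher, and Hdac11 fell by 1.19 ± 0.16 and was 1.06 ± 0.15 higher.

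Of 13 SIN3 subunits, which use the same Hdac1, Hdac2 and Rbbp4, 3 passed the test after injury and all 3 rose: Sap30 by 2.27 ± 0.40, Arid4a by 0.58 ± 0.12 and Brms1 by 0.51 ± 0.13. The same 3 were lower with the inhibitor than in injured arteries, by -2.06, -0.49 and -0.63. In the CoREST, NCoR and MiDAC complexes 1 of 15 rose and 6 fell after injury, led by Trerf1 (1.28 ± 0.16), Rcor2 (-1.05 ± 0.29) and Tbl1x (-0.78 ± 0.14). With the inhibitor against injured, 3 rose and 1 fell. Among 14 tested partners that recruit or bind NuRD, 4 rose and 1 fell after injury, with the haematopoietic factors Bcl11a (4.43 ± 0.61) and Ikzf1 (3.13 ± 0.26) and the reader Zmynd8 (0.49 ± 0.11) in front. Bcl11a and Ikzf1 were also higher in inhibitor-treated than in sham arteries, by 4.29 ± 0.77 and 2.35 ± 0.28. Bcl11a was at 0, 1.17 and 3.27 normalised counts in sham, so the size of its differences against sham depends on the 1 added before the log. It was at 31.8 to 59.9 in injured and 17.5 to 93.8 in inhibitor-treated libraries. Lymphocyte markers summed to 78.3 to 179 in sham, 1803 to 2832 in injured and 803 to 2563 in inhibitor-treated libraries, with 7 of 8 tested higher after injury and 8 of 10 higher with the inhibitor than in sham, and their part in the Bcl11a and Ikzf1 difference was not tested.

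A list of 16 genes held other complexes with Rbbp4 or its paralog (PRC2, CAF-1 and DREAM) and the related pocket protein Rb1. Of these, 7 rose and 2 fell after injury. Ezh2, the histone H3 methyltransferase of PRC2, rose by 1.25 ± 0.16, the CAF-1 subunit Chaf1b by 1.22 ± 0.28 and the DREAM pocket protein Rbl1 by 1.00 ± 0.15. The 2 that fell, as Rbbp4 did, were Lin52 (-0.71 ± 0.15) and Rbl2 (-0.61 ± 0.19) of DREAM. All 6 proliferation markers (list median 3.15) and all 12 macrophage markers (3.38) were higher in the same comparison, and their part in the counts of this list and of the SIN3, CoREST, reader and remodeler lists was not tested. Against sham, 4 of the 16 passed, all higher with the inhibitor, with Ezh2 at 2.94 ± 0.36, Lin54 at 1.95 ± 0.31 and Rb1 at 1.09 ± 0.13. The small RNAs and the erythroid markers other than the globins were high in the same libraries, and their part was not tested. Of 9 other methyl-CpG readers, 1 rose and 3 fell after injury: Uhrf1, which serves maintenance of DNA methylation in dividing cells, rose by 2.23 ± 0.29, and Zbtb38 and Zbtb4 fell by 0.96 ± 0.11 and 0.56 ± 0.10. Of 22 other remodelers, 2 rose and 1 fell, namely Chd7 (2.31 ± 0.33), Smarca1 (0.88 ± 0.18) and Chd6 (-0.90 ± 0.15). Of 10 histone acetyltransferases 1 passed, Kat5, which fell by 0.48 ± 0.13.

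Chd3 had the widest range of group means among the members, 0.93 on the log2 scale, ahead of Rbbp4 (0.51), Mta3 (0.46) and Mta1 (0.35), and Hdac1 the narrowest (0.12). Among 11681 genes, the 5 whose log2 levels, each centred on its own mean, lay closest to those of Chd3 over the 9 libraries were Jmjd8 (root mean square difference 0.0467), Ak3 (0.0632), Idh2 (0.0648), Aldh2 (0.0809) and Celsr2 (0.0841). Ak3, Idh2 and Aldh2 encode mitochondrial enzymes, Jmjd8 a protein with a JmjC domain and Celsr2 an atypical cadherin. Idh2 was at 2619 ± 64.1 normalised counts in sham, 1394 ± 120.2 in injured and 2211 ± 100.1 in inhibitor-treated arteries (SD, n = 3). Aldh2 was at 10704.9 ± 581, 5683 ± 596 and 9957 ± 205. Like Chd3 at 6389 ± 424, 3367 ± 284 and 5380.3 ± 238, these genes were highest in sham and lowest in injured arteries, with inhibitor-treated between.

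**Figure D4:**
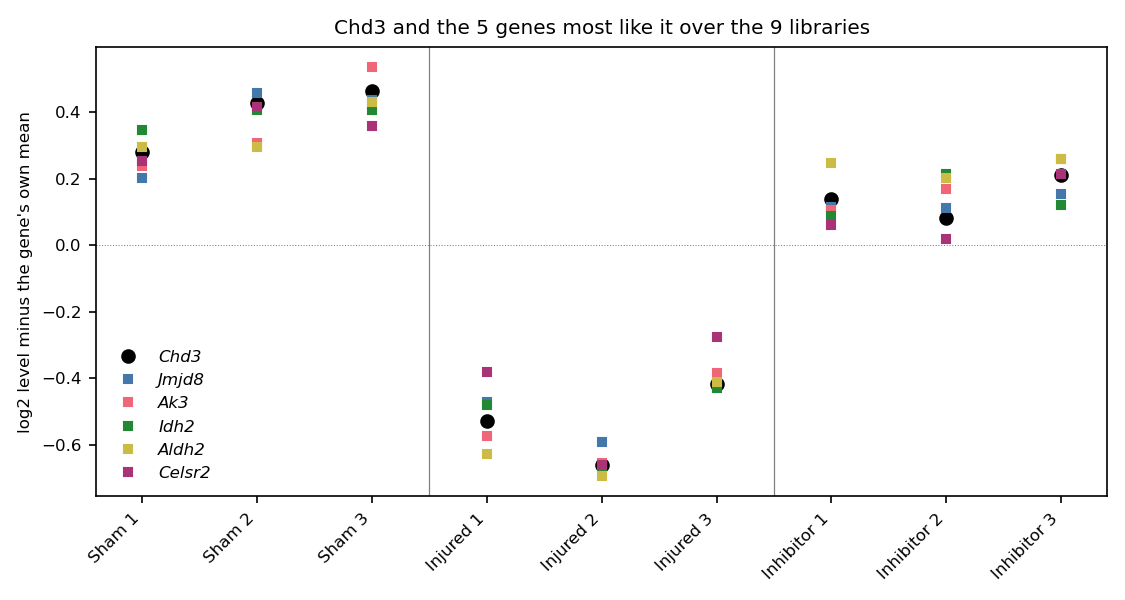
The log2 level minus the gene's own mean (y axis) in each of the 9 libraries (x axis) for Chd3 and the 5 genes nearest to it. Chd3 lay at 0.28 to 0.46 in sham, -0.66 to -0.42 in injured and 0.08 to 0.21 in inhibitor-treated libraries, and the 5 others, which were chosen for their likeness, follow it.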

How the data were processed

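The authors deposited 3 tables, 1 per pair of groups, with 6 libraries each. Per the file headers each holds a normalised signal per gene and library beside the log2 fold change and the raw and adjusted p-value of the authors' own test. Dividing each column by the value of 1 read returned whole reads for 100% of values (tolerance 0.01), so the deposited signal is a count divided by a library factor that differs between tables. The build was mm10 (GRCm38), per the submitters' processing notes. Aligner, counter and use of strand: not given in the sources used here. Genes were tested within each table with limma 3.58.1 in R 4.3.3 (trended variance, two-sided) on log2(normalised count + 1), for a mean of at least 10, which all 10 members passed; the log2 scale understates changes of low genes. Levels across groups used 1 median-of-ratios factor per library over 16750 genes. Paralog shares were compared by exact permutation over libraries, and positions come from GENCODE on GRCm38. Intervals are 95% limma intervals. Alternatives changed the pseudocount (0.5 and 8), filter, scaling, weights, libraries, replicate block and tool (edgeR 4.0.16 and DESeq2 1.42.0 on the recovered counts, and the authors' deposited log2 values). The test code was tested on simulated data. All members and their named relatives are reported, with up to 3 called genes of the largest change per list and comparison. Lin52 and Rbl2 were named beyond that rule. The 5 genes most like the member with the widest range are also reported. The members, lists and markers were chosen with earlier results of these data known.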

Additional observations from a re-analysis of the deposited data

How the results depend on the processing

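Each member had at least 272 reads in every library, and each group had 3 libraries; which of these limits the calls was not tested. Of the members' values over 21 alternatives in 3 comparisons, 565 kept their direction and side of the threshold, 16 came to pass it, 28 no longer passed and 21 turned sign. Members called after injury numbered 6 with sample weights (whose estimation did not converge) and 2 to 4 with a library left out, against 3. For inhibitor-treated against injured arteries they numbered 1 without the 3 set-aside libraries (injured replicate 2, sham replicate 3 and inhibitor-treated replicate 3). They numbered 2 to 5 there with a library left out, 5 by the authors' deposited test and 6 with sample weights, against 4. Against sham they numbered 2 under ribosomal protein scaling, 0 in the fit of all 9 libraries, 0 without the 3 set-aside libraries and 0 to 1 with a library left out, against 1. The cause was not tested.

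Deviations of same-numbered libraries correlated at 0.048, -0.063 and -0.076 for injured and sham. The values were 0.004, 0.192 and 0.016 for inhibitor-treated and injured, and 0.112, -0.068 and 0.071 for inhibitor-treated and sham. With 3 libraries per group these values cannot exclude a shared batch, and the labels name no shared animal. With the replicate block, 2, 2 and 0 members were called (Chd3 and Rbbp4 in both of the first comparisons; Mta1, Hdac2 and Mta3 were not), and 5762, 5747 and 877 of all genes against 6076, 6099 and 983.

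Over all genes, sample weights called 9621 after injury and 10651 with the inhibitor against injured, and 3069 were called there without the 3 set-aside libraries. Leaving out a library gave 4350 to 7312, 4099 to 7938 and 518 to 822 in the 3 comparisons.

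Under ribosomal protein scaling the log2 difference changed sign after injury for Hdac2 (-0.026), Mbd2 (-0.25) and Mta2 (-0.18), for inhibitor-treated against injured for Hdac2 (0.13), Hdac1 (0.41) and Mta2 (0.38), and against sham for Hdac2 (0.11), Mta1 (0.092), Hdac1 (0.024) and Rbbp4 (0.052). Under quantile normalisation it did so for Chd4 after injury (0.041) and for Chd4 (-0.038) and Mbd3 (-0.024) against injured, and without the 3 set-aside libraries for Chd4 against sham (-0.022). With a library left out, values of changing sign ranged from -0.040 to 0.16 for Mbd2 and -0.23 to 0.063 for Mta3 after injury (turned without injured replicate 1), from -0.043 to 0.016 for Hdac1 (injured replicate 1) and -0.094 to 0.21 for Mbd3 (injured replicate 3) against injured, and from -0.070 to 0.0083 for Mta1 (inhibitor-treated replicate 2) and -0.037 to 0.072 for Chd4 (inhibitor-treated replicate 1 or sham replicate 3) against sham. Of the differences that turned, only that of Hdac2 against injured was called in the main fit, at -0.30. Its turned value of 0.13 was not called (limma adjusted p = 0.607).

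Paralog shares whose sign turned with a library left out had overlapping groups. In percentage points the differences ranged from -0.0893 to 2.17 for Mbd2 against injured, from -0.591 to 0.341 for Mta2 against sham and from -0.914 to 1.21 for Mta3 after injury. For Rbbp4 they ranged from -1.23 to 0.778 after injury, from -0.645 to 1.36 against injured and from -0.684 to 1.03 against sham.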
